A study of Mus musculus with 6 samples.

Results

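The genes described here encode the subunits of the AMPA and NMDA receptors, measured in mouse hippocampus on 6 Affymetrix arrays. A probe set, the group of probes that reads 1 transcript, was taken as a member when its annotation gave exactly 1 gene symbol and that symbol was Gria1, Gria2, Gria3, Gria4, Grin1, Grin2a, Grin2b, Grin2c, Grin2d or Grin3a. Of these 10 genes, 9 were found, with 21 of the 45037 probe sets and 9 of the 18193 genes measured. Grin1, the obligatory NMDA subunit, had 0 probe sets annotated to it in the table used here and was not analysed here. A gene is described first at the probe set whose mean over the 6 arrays is highest, called the brightest, and the other probe sets are given beside it.

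The duplication mice were 3 of genotype Dp(11)17/+, which are heterozygous for a duplication on chromosome 11 and which the series title names as a model of Potocki-Lupski syndrome, and the others were 3 of genotype +/+. All 6 were labelled as male, 11 to 14 weeks old and C57BL/6-Tyr c-Brd in strain, with 1 array of hippocampal RNA per mouse. The values are on the log2 scale as the authors normalised them, so that a difference of 1 is a doubling of the signal. Array medians were 3.76 to 3.79 in Dp(11)17/+ mice and 3.74 to 3.78 in +/+ mice, and 24.2% to 24.7% and 23.9% to 24.9% of probe sets reached a log2 value of 6, the level used here to call a probe set bright. Arrays give no counts, and 3 mice a group limit the precision.

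AMPA receptors carry most of the fast excitatory current at synapses and are built from the products of Gria1 to Gria4. In adult hippocampal pyramidal cells most of them combine the Gria1 or Gria3 product with that of Gria2, whose edited transcript makes the channel nearly impermeable to calcium. NMDA receptors combine the Grin1 product with Grin2 products, which set how fast the channel closes, and they open only when glutamate, a co-agonist (glycine or D-serine) and depolarisation come together. Both receptor types are central to synaptic plasticity in this tissue.

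The libraries did not all match their labels. In Dp(11)17/+ replicate 1, Xist, which is transcribed from the silenced X of females, read 9.13 on the log2 scale, against 3.69 and 3.11 in the other Dp(11)17/+ mice and 3.06 to 3.21 in +/+ mice, and the Y-linked Eif2s3y had 2.48, against 5.41 to 6.01 in the other 5 mice. Markers of the fields of the hippocampus were present, with 7 of 8 measured CA1 pyramidal, 3 of 6 CA3 pyramidal and 5 of 10 dentate granule markers bright. So were 7 of 13 striatal markers and 9 of 19 markers of thalamus with habenula. Means over a list differed between mice. The CA1 mean was 7.06, 8.22 and 6.01 in Dp(11)17/+ replicates 1, 2 and 3, against 7.63 to 7.95 in +/+ mice, and the dentate mean was 5.21, 6.64 and 4.37, against 5.82 to 6.15. Markers of neighbouring regions went the other way. The mean over 13 striatal markers was 6.71, 5.47 and 7.51 in Dp(11)17/+ replicates 1, 2 and 3, against 5.42 to 6.07 in +/+ mice, and the 19 markers of thalamus with habenula averaged 5.10, 4.76 and 7.04, against 4.80 to 5.18. Dp(11)17/+ replicate 3 stood apart on each of these 4 means. The mean over 7 choroid plexus markers was 6.31, 4.58 and 6.57 in Dp(11)17/+ replicates 1, 2 and 3, against 7.32, 4.20 and 4.45 in +/+ mice, so that +/+ replicate 1 was highest. In bulk tissue, fewer cells of a type and less RNA per cell cannot be told apart.

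Among the 9 genes, the signal was highest for the AMPA subunit Gria2, followed by Gria1, Grin2b, Gria3, Gria4, Grin3a, Grin2c, Grin2d and Grin2a. The mean log2 values over the 6 mice were 10.34, 9.84, 8.78, 8.01, 7.11, 6.27, 5.85, 4.57 and 3.05 in that order. The means of the Dp(11)17/+ group and those of the +/+ group gave the same order. This is an order of array signals and not of transcript amounts, since each probe set has its own binding strength. Probe sets of 1 gene differed by up to 5.46 log2 units, and the 4 probe sets of Grin2b had means of 8.78, 6.94, 3.57 and 3.32.

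**Figure D1:**
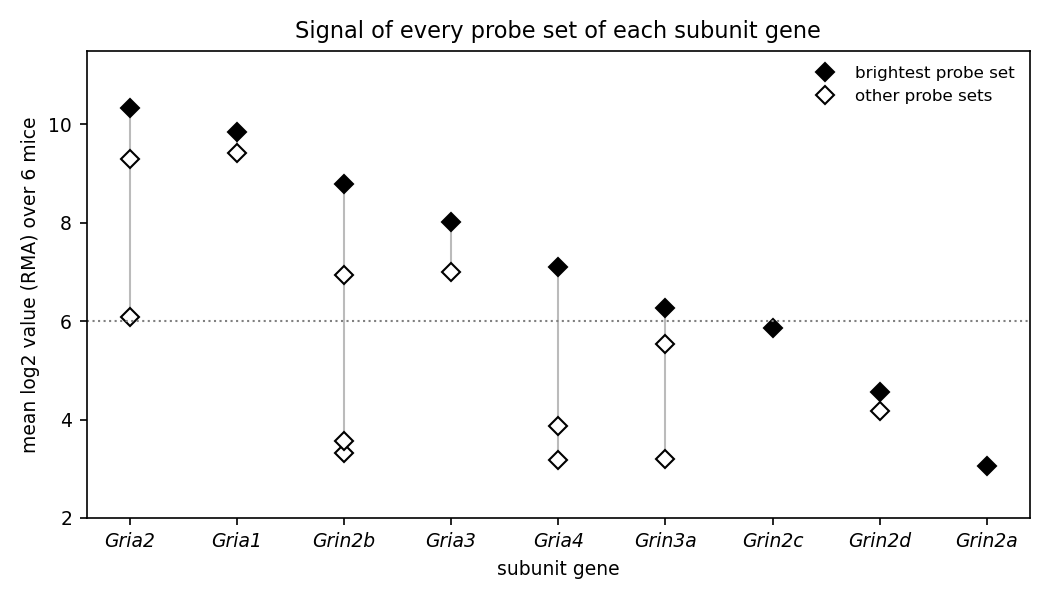
Mean log2 value over the 6 mice (vertical axis) of each of the 21 probe sets, by subunit gene (horizontal axis). Filled diamonds are the brightest probe set of a gene, open diamonds its other probe sets, and the dotted line marks a log2 value of 6. Probe sets of Gria2, Grin2b, Gria4 and Grin3a are spread over 3.08 to 5.46 log2 units within a gene.

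Neighbours in this order, each read at its brightest probe set, did not all separate. Grin2b lay above Gria3, Grin2c above Grin2d and Grin2d above Grin2a in all 6 mice with no overlap of their ranges. Gria2 lay above Gria1 in each of the 6 mice, but by 0.03 in Dp(11)17/+ replicate 2 and by 1.62 in Dp(11)17/+ replicate 3, and their ranges over the mice overlapped. Gria1 lay above Grin2b in 5 of 6 mice, the exception being Dp(11)17/+ replicate 3, where it was 0.27 below. Grin3a and Grin2c could not be ordered, with Grin3a higher in 3 of 6 mice. The same probe sets were read in all 6 mice, so a steady order over mice does not rank transcript amounts. By mean, the other Grin2b probe sets, at 6.94, 3.57 and 3.32, lay below both Gria3 probe sets, the brighter at 8.01. The other Gria2 probe sets, at 9.295 and 6.08, lay below both Gria1 probe sets, at 9.84 and 9.42. Grin2c lay above both Grin2d probe sets, and these above Grin2a. Of the 9 genes 6 were bright, all 4 Gria genes with Grin2b and Grin3a, while Grin2c, Grin2d and Grin2a lay below a log2 value of 6.

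Between the genotypes, no subunit passed the test. With p-values adjusted over the whole array, limma called 0 of the 9 genes and 0 of the 21 probe sets at an adjusted p under 0.05, against 0.0% of all 18193 genes, and the smallest adjusted p of a subunit was 0.994. A plain equal-variance statistic also called 0 of the 9. At an unadjusted p under 0.05 there was 1 of 9 genes, Gria3, against 3.17% of all genes. Of the 9 genes 6 had a positive and 3 a negative log2 fold change, with a median of 0.08, beside -0.02 over all genes. Over the 21 probe sets 10 were positive and 11 negative. Groups did not overlap for 1 of the 9 genes, against 8.29% of all genes.

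**Figure D2:**
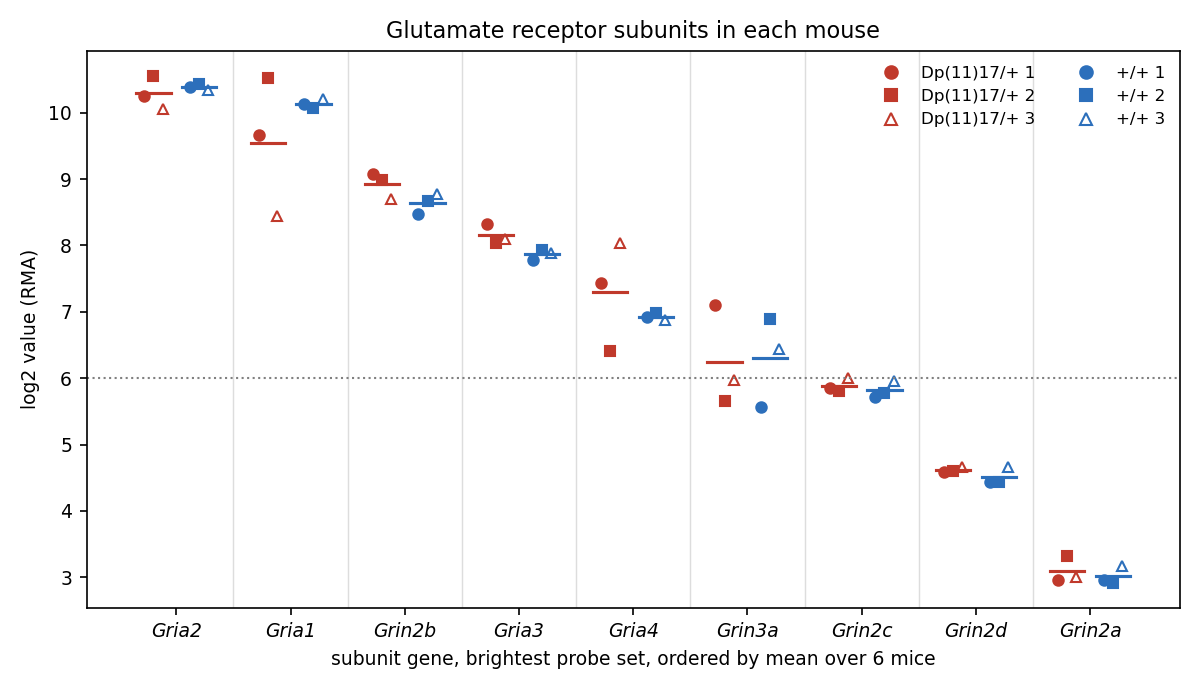
Log2 value of the brightest probe set (vertical axis) in each mouse for the 9 subunit genes (horizontal axis, in order of mean signal), with Dp(11)17/+ mice in red left of +/+ mice in blue and a bar at each group's mean. The dotted line marks a log2 value of 6. The Dp(11)17/+ values of Gria1, from 8.44 to 10.53, and of Gria4, from 6.42 to 8.03, lie on both sides of closely spaced +/+ values, and for Gria3 each Dp(11)17/+ mouse lies above each +/+ mouse.

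Gria2, on chromosome 3, encodes the subunit that limits calcium entry. Its brightest probe set had log2 values of 10.26, 10.55 and 10.06 in Dp(11)17/+ replicates 1, 2 and 3, against 10.38, 10.43 and 10.34 in +/+ mice. The Dp(11)17/+ mice lay on both sides of the +/+ mice. The log2 fold change was -0.09 (SE 0.13, 95% interval -0.40 to 0.21, limma adjusted p = 0.994), and 0.02 without Dp(11)17/+ replicate 3. A second bright probe set gave -0.05 (95% interval -0.26 to 0.16). The dimmest of the 3, with a mean of 6.08, gave 0.56 (95% interval -0.28 to 1.40) with a range over mice of 1.55, wider than the 0.49 and 0.23 of the other two.

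Gria1, on chromosome 11, encodes the subunit whose delivery to synapses is a hallmark of long-term potentiation in CA1. It does not lie in the duplicated segment taken as Cops3 to Rnf112, and 118 annotated genes, 76 of them protein-coding, stand between Gria1 and Cops3. Its log2 values were 9.66, 10.53 and 8.44 in Dp(11)17/+ replicates 1, 2 and 3, against 10.14, 10.07 and 10.21 in +/+ mice. The Dp(11)17/+ group held both the highest and the lowest mouse, while the +/+ mice lay within 0.13 of each other. The log2 fold change was -0.60 (SE 0.46, 95% interval -1.68 to 0.49, limma adjusted p = 0.994). It was -0.04 without Dp(11)17/+ replicate 3, -1.09 without Dp(11)17/+ replicate 2, and 0.39 with Dp(11)17/+ replicate 2 as the only Dp(11)17/+ mouse. The SD of Gria1 was 1.05 in Dp(11)17/+ mice and 0.07 in +/+ mice, where the medians over the 7104 bright genes were 0.14 and 0.11. Its second probe set, with a mean of 9.42, had the same highest and lowest mouse, at 10.32 in Dp(11)17/+ replicate 2 and 8.49 in Dp(11)17/+ replicate 3, but gave a log2 fold change of 0.01 (95% interval -0.98 to 1.01), and of 0.48 without Dp(11)17/+ replicate 3, a fit added after seeing the data. The log2 fold change of -0.60 was thus not repeated at the second probe set, and neither interval left out 0.

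Gria3, on the X chromosome, encodes the AMPA subunit that pairs with the Gria2 product in a smaller pool of hippocampal receptors. Its log2 values were 8.32, 8.04 and 8.09 in Dp(11)17/+ replicates 1, 2 and 3, against 7.78, 7.93 and 7.89 in +/+ mice. Every Dp(11)17/+ mouse lay above every +/+ mouse. The log2 fold change was 0.29 (SE 0.10, 95% interval 0.05 to 0.53, 1.22-fold), with a limma unadjusted p of 0.0255 and an adjusted p of 0.994 over all probe sets, so that it did not pass. Its second probe set also had non-overlapping groups, with log2 values of 7.59, 7.12 and 7.21 in Dp(11)17/+ mice against 6.95, 7.10 and 6.05 in +/+ mice. There the gap between the nearest mice, 7.12 and 7.10, was small against the spread, and the log2 fold change was 0.60 (SE 0.28, 95% interval -0.05 to 1.26). The highest mouse at both probe sets was Dp(11)17/+ replicate 1, the mouse whose Xist value did not match its label. Without that mouse the log2 fold change of the brightest probe set was 0.20 (unadjusted p = 0.0846 by limma), and without +/+ replicate 1 it was 0.25 (unadjusted p = 0.0803). It stayed between 0.17 and 0.45 in the 16 alternatives run. The groups also did not overlap on 3 of the 14 marker lists, and overlapped on the other 11. The 8.29% found for single genes does not apply to list means, and no share to set beside this count was computed. The mean over 10 astrocyte markers, of which 9 were higher, was 9.32 to 9.44 in Dp(11)17/+ mice, against 9.22 to 9.29 in +/+ mice. Over 7 endothelial markers, 6 of them higher, it was 6.60 to 6.81, against 6.46 to 6.53, and over 6 CA3 pyramidal markers, 5 of them lower, 5.94 to 6.22, against 6.25 to 6.38. The part of sex or of these cell types in the Gria3 difference was not tested.

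Gria4, on chromosome 9, encodes the AMPA subunit with fast kinetics that in adult forebrain is known from interneurons and thalamic neurons. Its log2 values were 7.44, 6.42 and 8.03 in Dp(11)17/+ replicates 1, 2 and 3, against 6.92, 6.98 and 6.87 in +/+ mice. The +/+ mice lay within 0.10 of each other, and the Dp(11)17/+ mice on both sides of them. The log2 fold change was 0.37 (SE 0.36, 95% interval -0.48 to 1.22, limma adjusted p = 0.994). It was 0.00 without Dp(11)17/+ replicate 3, 0.81 without Dp(11)17/+ replicate 2, and -0.51 with Dp(11)17/+ replicate 2 as the only Dp(11)17/+ mouse. A dimmer probe set, with a mean of 3.88, had the same order of Dp(11)17/+ mice (4.10, 3.33 and 4.71, against 3.41 to 4.12 in +/+ mice) and a log2 fold change of 0.34, also 0.00 without Dp(11)17/+ replicate 3. The third, at a mean of 3.18, gave -0.11.

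**Figure D3:**
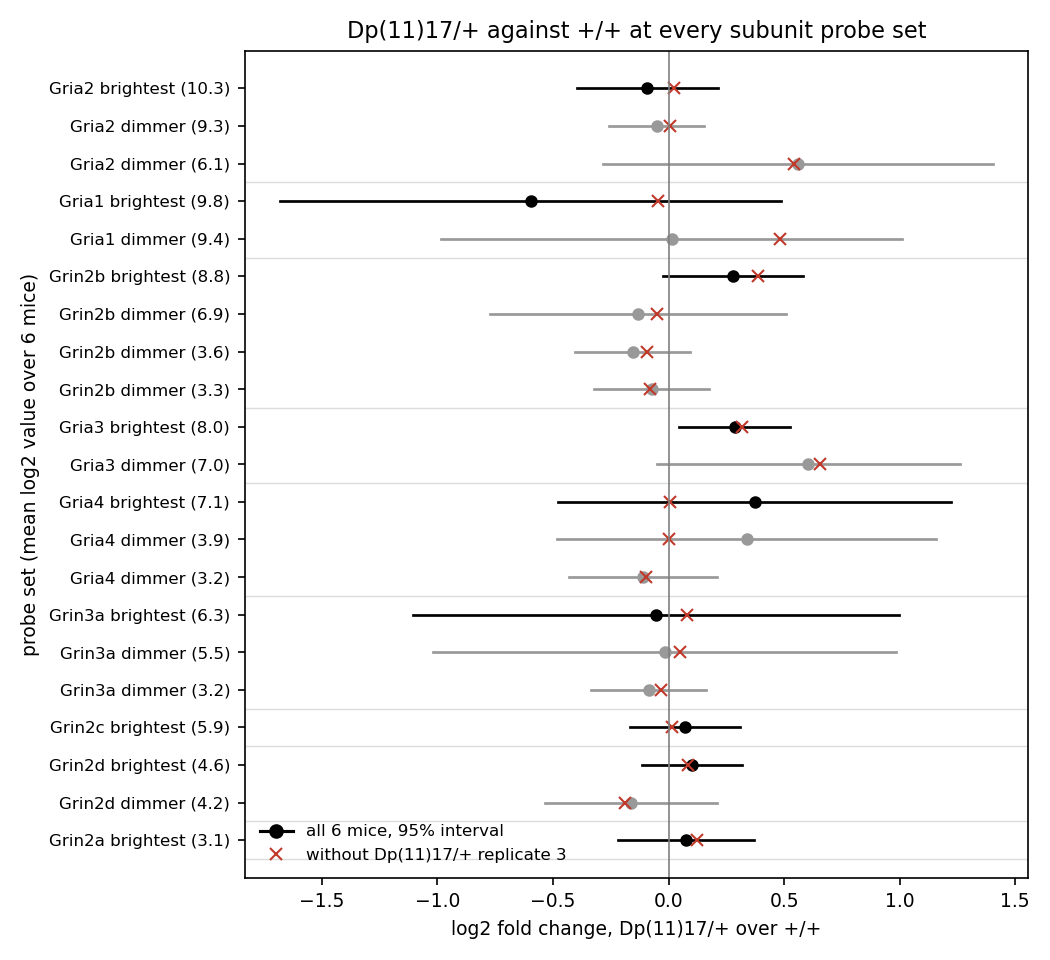
Log2 fold change of Dp(11)17/+ over +/+ (horizontal axis) at each of the 21 probe sets (vertical axis, grouped by gene with each probe set's mean log2 value in brackets). Points are estimates from all 6 mice with 95% intervals, black for the brightest probe set and grey for the others, and crosses are estimates without Dp(11)17/+ replicate 3. Of the 21 intervals 1 leaves out 0, that of the brightest Gria3 probe set, and the Gria1 and Gria4 estimates move towards 0 without that mouse at the brightest probe set.

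Grin2b, on chromosome 6, encodes the NMDA subunit with slow closing that binds calcium/calmodulin-dependent kinase II. Its log2 values were 9.07, 8.99 and 8.71 in Dp(11)17/+ replicates 1, 2 and 3, against 8.47, 8.68 and 8.78 in +/+ mice. The groups overlapped through Dp(11)17/+ replicate 3, which lay below +/+ replicate 3. The log2 fold change was 0.28 (SE 0.13, 95% interval -0.02 to 0.58, limma unadjusted p = 0.0654, adjusted p = 0.994), and it did not pass. With each mouse left out it ran from 0.19 to 0.39. It was 0.19 without +/+ replicate 1 (limma unadjusted p = 0.198), 0.20 without Dp(11)17/+ replicate 1 (unadjusted p = 0.199), 0.35 without +/+ replicate 3 (unadjusted p = 0.0466) and 0.39 without Dp(11)17/+ replicate 3 (unadjusted p = 0.0177). The other 3 probe sets of Grin2b gave -0.13, -0.16 and -0.07, the opposite direction, and each of their intervals held 0. One of these 3 was bright, with a mean of 6.94 and log2 values of 6.95, 6.96 and 6.71 in Dp(11)17/+ mice against 6.39, 7.06 and 7.56 in +/+ mice.

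Grin2a, on chromosome 16, encodes the faster closing NMDA subunit that gains weight as the forebrain matures. It was read by 1 probe set, with log2 values of 2.95, 3.32 and 3.00 in Dp(11)17/+ replicates 1, 2 and 3, against 2.95, 2.92 and 3.16 in +/+ mice. Its mean lay at the 28.2nd percentile of all probe sets, below the array medians, so that the log2 fold change of 0.08 (95% interval -0.22 to 0.37) is a difference between dim signals. The planned within-mouse log2 ratio of Grin2a over Grin2b rests on this dim probe set and is not read as a balance of subunits. Its difference of -0.20 (exact two-sided permutation p = 0.3, 0.4 adjusted over the 2 ratios) stands beside log2 fold changes of 0.08 for Grin2a and 0.28 for Grin2b.

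Grin2c and Grin2d encode NMDA subunits best known from cerebellar granule cells, astrocytes and thalamus for the first and from interneurons for the second. Grin2c, on chromosome 11 and outside the segment, had log2 values of 5.86, 5.80 and 6.00 in Dp(11)17/+ mice, against 5.71, 5.77 and 5.96 in +/+ mice. Its log2 fold change was 0.07 (95% interval -0.17 to 0.31). Grin2d, on chromosome 7, had 4.59, 4.61 and 4.66 in Dp(11)17/+ mice, against 4.44, 4.44 and 4.66 in +/+ mice, and a log2 fold change of 0.10 (95% interval -0.11 to 0.32). Its dimmer probe set gave -0.16. These dim signals varied little, with ranges over the 6 mice of 0.29 for Grin2c and 0.23 for Grin2d, and their groups overlapped.

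Grin3a, on chromosome 4, encodes a subunit that lowers calcium entry and is most abundant in young brain. Its log2 values were 7.10, 5.65 and 5.98 in Dp(11)17/+ replicates 1, 2 and 3, against 5.57, 6.89 and 6.44 in +/+ mice. Here the mice differed within both groups, with SDs of 0.76 in Dp(11)17/+ and 0.67 in +/+ mice, higher than 97.4% and 99.2% of bright genes. The log2 fold change was -0.05 (SE 0.45, 95% interval -1.10 to 0.995), and its sign turned with single mice left out. A dimmer probe set had the same 2 high mice, with 6.28 in Dp(11)17/+ replicate 1 and 6.30 in +/+ replicate 2, against 4.92 to 5.40 in the other 4. The third probe set, at a mean of 3.19, varied by 0.32 over the 6 mice.

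The balance of AMPA subunits within a mouse was compared through the log2 ratio of Gria1 over Gria2, in which the binding strength of each probe set cancels between mice. It was -0.60, -0.03 and -1.62 in Dp(11)17/+ replicates 1, 2 and 3, against -0.24, -0.36 and -0.14 in +/+ mice. The Dp(11)17/+ mice held the highest and the lowest ratio. The means were -0.75 ± 0.81 in Dp(11)17/+ and -0.25 ± 0.11 in +/+ mice (SD, n = 3 each), a difference of -0.50 (exact two-sided permutation p = 0.4, 0.4 adjusted over the 2 ratios). With 3 mice a group this exact test cannot go below p = 0.1. Without Dp(11)17/+ replicate 3 the difference was -0.07. The ratio was taken at the brightest probe set of each gene. Gria1 had a log2 fold change of -0.60 there and of 0.01 at its second probe set, for which no ratio was computed.

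Gria1 and Gria4 varied between Dp(11)17/+ mice beside the regional markers, and in opposite directions. As differences from the +/+ mean, Gria1 at its brightest probe set lay at -0.48, 0.39 and -1.70 in Dp(11)17/+ replicates 1, 2 and 3. The CA1 marker mean lay at -0.72, 0.45 and -1.77 and the dentate marker mean at -0.75, 0.68 and -1.60. The second Gria1 probe set lay at 0.05, 0.91 and -0.92 in those mice. There Dp(11)17/+ replicate 1 did not lie below the +/+ mean. Gria4 lay at 0.52, -0.51 and 1.11, where the striatal marker mean lay at 1.06, -0.18 and 1.86 and the thalamic marker mean at 0.12, -0.22 and 2.06. Both subunits thus had their extreme value in Dp(11)17/+ replicate 3, as the marker lists did. Of the marker genes, 8 of 8 for CA1 and 9 of 10 for dentate had a negative log2 fold change. It was positive for 13 of 13 of striatum and 18 of 19 of thalamus and habenula. Over all 18193 genes, 10605 were negative and 7588 positive. The genes of a list were read in the same 6 mice, so their signs are not independent of each other. The lists were chosen with earlier results of these data known. On each of these lists the means of the groups overlapped, and Dp(11)17/+ replicate 2 lay on the other side of the +/+ mean from replicates 1 and 3. Single defining markers in Dp(11)17/+ replicate 3 were Fibcd1 of CA1 at 4.24, against 6.35 to 7.39 in +/+ mice, and Prkcd of thalamus at 9.19, against 5.24 to 5.48. The 9 interneuron markers had means of 8.36, 7.95 and 8.42 in Dp(11)17/+ replicates 1, 2 and 3, against 8.03 to 8.39 in +/+ mice. The defining marker of cerebellar granule cells, Gabra6, lay at 2.80 to 3.31 in all 6 mice. Other cerebellar markers varied more, with Cbln1 at 4.35 to 6.575 and Car8 at 3.98 to 6.26, both highest in Dp(11)17/+ replicate 3. The mean over 6 cerebellar markers, 0 of them bright, was 3.95, 3.55 and 4.16 in Dp(11)17/+ replicates 1, 2 and 3. The +/+ mean was 3.89, and 2 of these markers had a positive and 4 a negative log2 fold change. The part of tissue composition in the subunit values was not tested.

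**Figure D4:**
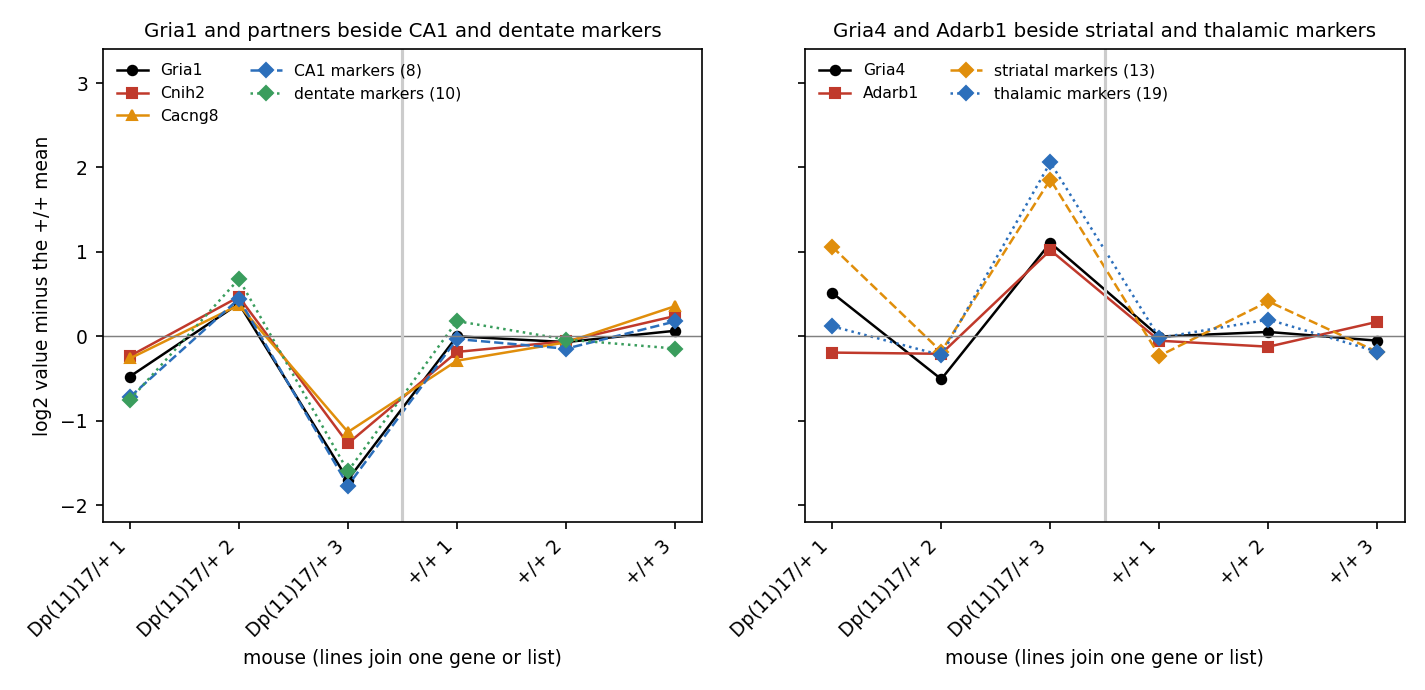
Log2 value minus the +/+ mean (vertical axis) in each mouse (horizontal axis, Dp(11)17/+ left of +/+). The left panel shows Gria1 at its brightest probe set and the AMPA partners Cnih2 and Cacng8, with the means over 8 CA1 and 10 dentate markers. In the right panel are Gria4, also at its brightest probe set, and Adarb1, with the means over 13 striatal and 19 thalamic markers. In Dp(11)17/+ replicate 3 Gria1 lies at -1.70 and the CA1 markers at -1.77, while Gria4 lies at 1.11 and the thalamic markers at 2.06.

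The genes whose profile over the 6 mice was nearest to a variable subunit were found by the root mean square difference of mean-centred log2 values among 7103 other bright genes. Nearest to Gria1 were Prdm8, at a difference of 0.09, and Scn3b, at 0.11. Prdm8 had 7.43, 8.31 and 6.38 in Dp(11)17/+ replicates 1, 2 and 3, against 7.92 to 8.21 in +/+ mice, the same highest and lowest mouse as Gria1. Nearest to Gria4 were Olfm2, at 0.06, and Hrh3, at 0.14. Nearest to Grin3a were Fxyd6, at 0.09, and Plxnc1, at 0.11, and Fxyd6 was high in the same mice, with 8.47 in Dp(11)17/+ replicate 1 and 8.25 in +/+ replicate 2. These 6 profiles were picked for their likeness, so that sharing the high or low mice follows from the choice. They are descriptions over 6 mice.

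Proteins that accompany the receptors were compared through 6 lists with 69 measured genes of 74 listed, of which 33 had a positive and 36 a negative log2 fold change, with a median of -0.01 beside -0.02 over all genes. Limma called 0 of the 69 by adjusted p, and 3 had an unadjusted p under 0.05, against 3.17% of all genes. With Dp(11)17/+ replicate 2 left out that number was 23, or 33.3%, where the share of all genes was also higher, at 8.15%. It was 1 with Dp(11)17/+ replicate 3 left out, against 2.15% of all genes, and 1 with +/+ replicate 3 left out, against 2.26%.

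Of 19 measured auxiliary proteins of the AMPA receptor, 8 had a positive and 11 a negative log2 fold change, and 2 of the positive ones had an unadjusted p under 0.05. Nptx2, a secreted pentraxin that clusters AMPA receptors, had a log2 fold change of 0.48 (SE 0.18, limma unadjusted p = 0.0314), and Cacng5, a transmembrane AMPA receptor regulatory protein, had 0.72 (SE 0.29, unadjusted p = 0.0423), and the groups of both overlapped. Of the 19 genes 2 had groups that did not overlap, against 8.29% of all genes, and they went opposite ways. For Cpt1c every Dp(11)17/+ mouse, at 8.25 to 8.52, lay below every +/+ mouse, at 8.53 to 8.92. Its log2 fold change was -0.24 (limma unadjusted p = 0.11). For Cacng7, of the same family as Cacng5, every Dp(11)17/+ mouse, at 6.60 to 6.96, lay above every +/+ mouse, at 6.42 to 6.59. Its log2 fold change was 0.25 (limma unadjusted p = 0.0581). Cacng8, the family member known to dominate in hippocampus, lay below a log2 value of 6 in all 6 mice. It had 5.35, 5.99 and 4.48 in Dp(11)17/+ replicates 1, 2 and 3, against 5.33, 5.54 and 5.97 in +/+ mice. Cnih2, a cornichon protein that slows AMPA receptor gating, had 9.81, 10.51 and 8.78 in Dp(11)17/+ mice, against 9.86, 9.99 and 10.29 in +/+ mice. Both had their lowest value in Dp(11)17/+ replicate 3 and their highest in Dp(11)17/+ replicate 2, as Gria1 did. For Cacng8 that highest value, 5.99, lay close to the 5.97 of +/+ replicate 3. Both had log2 fold changes of -0.34 (SE 0.36 for Cacng8 and 0.40 for Cnih2).

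Among 16 measured genes of AMPA receptor trafficking and anchoring, 8 were positive, 8 negative, and 1 of the negative ones had an unadjusted p under 0.05. This was Myo5b, a motor that carries receptor-bearing endosomes into spines, with log2 values of 6.68, 6.71 and 5.02 in Dp(11)17/+ mice against 6.93, 7.24 and 7.72 in +/+ mice. Every Dp(11)17/+ mouse lay below every +/+ mouse, by a log2 fold change of -1.15 (SE 0.46, limma unadjusted p = 0.0394, adjusted p = 0.994). It was the 1 gene of the 16 whose groups did not overlap, against 8.29% of all genes. Lrrtm2, a synaptic adhesion protein that holds AMPA receptors, had 0.37 (SE 0.21), and Nsf, the ATPase that binds the Gria2 product, -0.19 (SE 0.11).

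On the NMDA side, 0 of 9 genes of co-agonist supply and clearance and 0 of 20 transport and signalling partners had an unadjusted p under 0.05. Srr, which makes D-serine, had log2 values of 7.66, 7.76 and 7.44 in Dp(11)17/+ mice, against 7.49, 7.68 and 7.74 in +/+ mice, a log2 fold change of -0.02 (SE 0.11). Psat1 and Phgdh of serine synthesis had 0.21 and 0.12, and Gldc of glycine cleavage -0.24. Nos1, the neuronal nitric oxide synthase tethered to NMDA receptors, had -0.76 (SE 0.40), with 7.58, 7.12 and 6.16 in Dp(11)17/+ mice against 7.12, 8.14 and 7.88 in +/+ mice. Rasgrf2, a Ras activator bound to NMDA receptors, had 0.19 and Lin7a, an adaptor of receptor transport, 0.31.

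Adarb1, the enzyme that edits the Gria2 transcript, had log2 values of 6.99, 6.98 and 8.20 in Dp(11)17/+ replicates 1, 2 and 3, against 7.13, 7.06 and 7.36 in +/+ mice. Dp(11)17/+ replicate 3 was the one mouse above the +/+ range, and the log2 fold change was 0.21 (SE 0.32). Adar had -0.08 and Adarb2 -0.01. Arrays of this kind read transcript level and not editing. The remaining NMDA and delta subunits measured were Grin3b, with a dim signal of 2.95 to 3.20 over the 6 mice and a log2 fold change of 0.07, and Grid1, with -0.08.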

How the data were processed

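Each array has 1 deposited log2 value per probe set, which the authors made with RMA per the submitters' processing notes, a method of background correction, quantile normalization and median polish of probes. Its version was not stated in the sources used. Quantile normalization gives all arrays nearly the same distribution, so only changes relative to other genes are seen. The protocols name organs other than hippocampus and mention pools, and the sample records, which name hippocampus and 1 individual each, were followed. No label speaks of separate litters or batches, and replicate numbers follow accession order.

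After 64 control probe sets were left out, 45037 were tested, of which 34945 had 1 gene symbol, 932 several and 9160 none. Symbols were updated by Entrez identifier (34741 matched, 204 not) to a gene table of GRCm38.p6, used for names, chromosomes and gene order. Genotypes were compared with limma 3.58.1 in R 4.3.3 (lmFit, eBayes, no covariate, two-sided, 7.11 degrees of freedom), with Benjamini-Hochberg adjustment over the 45037 probe sets and a threshold of 0.05. Fits were tested on simulated data. Ratios were tested by exact permutation over 20 labelings. The ratio of Grin2b over Grin1 was planned and could not be computed.

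Named were all subunits, the 3 genes of smallest unadjusted p in each list, always Cacng8, Cnih2, Adarb1 and Srr, and the 2 nearest profiles to each of the 3 most variable bright subunits. Cpt1c, single marker genes and Xist were named after their values were seen. Members and lists were chosen with earlier results of these data known. Alternatives were other scalings, variance models, floors of 4 and 6 on the mean log2 value, the mean over a gene's probe sets, each mouse left out, and Dp(11)17/+ replicate 2 alone.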

Additional observations from a re-analysis of the deposited data

How the results depend on the processing

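No paired analysis was possible because the labels carry no replicate numbers, and the numbers 1 to 3 used here follow accession order and pair no mice. The number of subunit genes called by adjusted p was 0 in the 15 alternatives run. The number of probe sets called over the whole table was 1 with an intensity trend and robust prior and 1 with array weights. Subunit genes at an unadjusted p under 0.05 numbered 2 with cyclic loess, against 3.22% of all genes, and 2 with array weights, against 4.52%. These were Gria3 and Grin2b in both. With each mouse left out they numbered 0 to 3, against 2.15% to 8.15% of all genes. The count of 3 came without Dp(11)17/+ replicate 2, where the share of all genes was 8.15%. Of 69 pathway genes 1 had an unadjusted p under 0.05 with array weights, against 4.52% of all genes. The number was 0 with the plain equal-variance statistic, against 3.78%, and 1 to 23 with each mouse left out, against 2.15% to 8.15%. Subunit genes whose groups did not overlap numbered 1 to 4 with each mouse left out. Smaller groups separate more easily, and the share over all genes was not computed there. These counts can therefore not be set against the 8.29% of all genes found with 3 mice a group. The Grin2a over Grin2b difference turned to 0.10 with the mean over all probe sets, and the Gria1 over Gria2 difference to 0.22 with Dp(11)17/+ replicate 2 alone; with each mouse left out they were -0.28 to -0.06 and -0.86 to -0.07.

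Signs of single log2 fold changes turned as follows. With the mean over all probe sets Gria2 had 0.14, Grin2b -0.020 and Grin2d -0.030. With Dp(11)17/+ replicate 2 alone Gria1 had 0.39, Gria2 0.17, Gria4 -0.51 and Grin2c -0.012. With each mouse left out Gria2 ran from -0.22 to 0.023, turning without Dp(11)17/+ replicate 3, and Grin2a from -0.037 to 0.15, turning without Dp(11)17/+ replicate 2. Grin3a ran from -0.48 to 0.24, turned without any one of 4 mice, Dp(11)17/+ replicates 2 and 3 and +/+ replicates 2 and 3, and had 0.24 with array weights. The second probe sets of Gria2 and Grin3a had 0.0076 and 0.049 without Dp(11)17/+ replicate 3, in a fit chosen after seeing the data. The cause of these turns was not tested. A floor of 4 left 8 and a floor of 6 left 6 of the 9 genes. Low signal limits Grin2a, whose mean lay at the 28.2nd percentile of all probe sets. Grin2d and Grin2c lay below a log2 value of 6, but at the 61.0th and 74.2nd percentiles. The Grin2b over Grin1 ratio was not run.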
